A study of Mus musculus with 24 samples.

Results

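9 genes that mark heat-producing brown and beige fat cells, Ucp1, Cidea, Dio2, Cox8b, Cox7a1, Prdm16, Ppargc1a, Ebf2 and Adrb3, were followed in the inguinal white adipose tissue of 24 young mice. They were taken by symbol from the 16118 genes of the deposited table, all 9 were listed, and all 9 passed the filter on low counts. Inguinal fat is a subcutaneous depot, and poly(A) RNA of each mouse was sequenced as its own library. The 6 groups held 4 animals each: males and females at postnatal day 21 (p21), males and females at day 28 (p28) after standard weaning (SW), and males and females at p28 after delayed weaning (DW). The descriptions label the p21 animals SW as well. Changes from p21 to p28 DW therefore set DW-labelled animals against SW-labelled ones. According to the design text, pups were either separated from the mother at p21 or stayed with it. No genotype, strain or treatment other than weaning is given in the labels, and nothing says whether animals of a group came from separate litters, so p-values measure the spread between these animals. The series asks how this depot is remodelled in each sex when breastfeeding goes on for longer.

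Brown and beige fat cells burn fuel for heat. Noradrenaline from sympathetic nerves acts on beta-adrenergic receptors, of which ADRB3, encoded by Adrb3, is the main one of rodent fat cells, and cyclic AMP inside the cell then drives lipolysis and the transcription of Ucp1. UCP1 lets protons leak back across the inner mitochondrial membrane, so that respiration yields heat in place of ATP, and inguinal fat is the classic mouse depot in which Ucp1-bearing cells appear among white fat cells. EBF2 and PRDM16 are transcriptional regulators of brown and beige identity, and PGC-1alpha, the product of Ppargc1a, is a coactivator that drives mitochondrial genes and Ucp1. CIDEA is a lipid droplet protein of brown and beige fat cells. DIO2 converts thyroxine into the active hormone T3 inside the cell. Cox8b and Cox7a1 encode isoforms of cytochrome c oxidase subunits used in heart, skeletal muscle and brown fat.

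The promoters of Ucp1, Dio2 and Ppargc1a are printed because these 3 genes fell in at least 1 of the comparisons below and each holds a motif of the cyclic AMP pathway near its start site. Each sequence covers 300 bases, from upstream of the start site to just after it, 5′ to 3′ on the gene's own strand, from RefSeq on build GRCm38.p6. Capitals mark matches, on either strand, to the cyclic AMP response element TGACGTCA, to its short form TGACG, which lies within the full element, or to AGGTCA, the core bound by nuclear receptors such as the PPARs.
Ucp1, chr8:83290098-83290397, plus strand: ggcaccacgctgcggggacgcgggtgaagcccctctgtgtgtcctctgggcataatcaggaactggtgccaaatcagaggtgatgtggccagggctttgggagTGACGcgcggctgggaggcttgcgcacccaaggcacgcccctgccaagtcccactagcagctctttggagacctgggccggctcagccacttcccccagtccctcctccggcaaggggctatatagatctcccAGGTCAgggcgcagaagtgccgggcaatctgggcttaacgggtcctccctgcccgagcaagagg
Dio2, chr12:90738989-90739288, minus strand: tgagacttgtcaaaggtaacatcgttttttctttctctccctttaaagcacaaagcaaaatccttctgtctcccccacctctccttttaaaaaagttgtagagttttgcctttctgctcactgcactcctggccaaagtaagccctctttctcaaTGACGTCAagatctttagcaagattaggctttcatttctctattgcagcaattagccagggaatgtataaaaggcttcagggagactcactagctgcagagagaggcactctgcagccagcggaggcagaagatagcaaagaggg
Ppargc1a, chr5:51567676-51567975, minus strand: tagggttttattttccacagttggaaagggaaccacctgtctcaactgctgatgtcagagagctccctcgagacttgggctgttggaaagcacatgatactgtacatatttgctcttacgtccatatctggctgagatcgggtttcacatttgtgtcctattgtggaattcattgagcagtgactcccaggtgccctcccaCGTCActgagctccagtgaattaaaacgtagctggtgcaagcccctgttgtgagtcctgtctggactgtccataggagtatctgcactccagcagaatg
In the Ucp1 promoter TGACG began at position -147 from the start site and AGGTCA at -14. The Dio2 promoter held the full TGACGTCA at -95, and in Ppargc1a the short form lay on the opposite strand at -49. Of 32544 promoters of the same length, 1.8% held TGACGTCA, 20.9% held TGACG and 16.2% held AGGTCA. The promoter table had entries for 6 of the 9 genes. Among these 6, TGACG was found in 3, TGACGTCA in 1 and AGGTCA in 1, and those of Cox8b, Cox7a1 and Prdm16 held no match. Cidea, Adrb3 and Ebf2 had no entry. A match describes the letters only and is not a known site of binding.

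Libraries held 57600711 to 302145813 recovered reads over the listed genes. The libraries of p21 male 53 and SW male 84 stood apart with 14054 and 15497 detected genes, against 15859 to 16066 in the others. 4 Y-linked genes summed to 245 to 328 in every male and to 0 in every female. The summed value of 11 white fat cell markers was 19890 to 23300 in p21 males and 23510 to 34130 in the other groups. That of 22 skeletal muscle genes ranged from 44.8 to 9230. In males the muscle sums lay between 44.8 and 748 at p21, between 631 and 9230 after SW and between 455 and 9132 after DW. In females they lay between 46.8 and 2068, between 550 and 4401 and between 54.7 and 2908. Macrophage markers (5 genes) summed to 96.2 to 243 at p21 and 244 to 451 at p28, and red blood cell genes (6) to 574 to 2157 at p21 and 177 to 587 at p28. Mammary epithelial markers (11) summed to 0.34 to 43.3 in males, and in females to 42.9 to 164 at p21, 273 to 381 after SW and 110 to 224 after DW. In females 9 of these 11 were called higher from p21 to p28 SW and 3 from p21 to p28 DW, and 2 were called lower in DW than in SW. The part of this shift in the female changes below was not tested.

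Values are read counts divided by 1 factor per library, as deposited. They are not scaled for gene length, so levels are compared between animals and not between genes. Changes are on the log2(value + 1) scale from 1 limma fit over 16005 genes, and a gene was called at an adjusted p under 0.05. The comparisons share animals: both age comparisons use the p21 mice, and weaning is set against the same SW mice. Where all 4 animals of 1 group lay above or below all 4 of another, this is a description. Random orderings of 4 against 4 separate fully at a share of 0.0286, and the share over all genes was not counted.

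Delayed weaning was compared with standard weaning at p28. None of the 9 genes was called by limma in males, in females or in the mean of both sexes, where 0.256%, 1.27% and 2.21% of all genes tested were called. Over all 16005 genes, 1110, 3019 and 2781 were at an unadjusted p under 0.05 in males, females and the mean of both sexes. Of the 9 there was 1 in males (Adrb3), 1 in females (Dio2) and 2 in that mean (Cidea and Dio2). Over all alternatives, edgeR and DESeq2 included, 0 of 972 values for these genes were called. The lowest adjusted p among them was 0.0525, for Cidea in the mean of both sexes without DW female 76 (-0.81). In the mean of both sexes 7 of the 9 changes were below 0, with a median of -0.26, against -0.01 over all genes tested. Of all 16005 genes, 8462 were below 0. The median change without regard to sign was 0.26 in the 9 and 0.11 over all genes.

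The interval from p21 to p28 was compared next. Under standard weaning Adrb3 was called higher in males, Ppargc1a and Ebf2 were called lower in females, and all 3 were called in the mean of both sexes. These are 1, 2 and 3 of the 9 genes, where 11.9%, 11.6% and 25.8% of all genes were called. Under delayed weaning Ucp1 was called lower in males. In females Dio2 and Ppargc1a were called lower and Adrb3 higher, and in the mean of both sexes Ucp1, Cidea, Dio2 and Ebf2 were lower and Adrb3 was higher. These are 1, 3 and 5 of the 9 genes, where 15%, 12.1% and 22.8% of all genes were called. The median of the 9 changes in the mean of both sexes was -0.13 under SW and -0.32 under DW, against 0.02 and 0.01 over all genes. Cox8b, Cox7a1 and Prdm16 were called in none of these.

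Females were compared with males at each stage. None of the 9 genes was called by limma at p21, at p28 SW or at p28 DW, where 0.356%, 3.54% and 2.46% of all genes were called. Of all 16005 genes, 1376, 1466 and 3158 were at an unadjusted p under 0.05. Of the 9 there were 2 (Ucp1 and Ppargc1a), 1 (Adrb3) and 2 (Prdm16 and Ppargc1a). None was called for a sex difference in the response to weaning, in the change from p21 to p28 SW or in the change from p21 to p28 DW either, where 0.0187%, 1.03% and 0.0687% of all genes were called. At an unadjusted p under 0.05 those tests had 815, 1304 and 2723 of all 16005 genes. Of the 9 they had 1 (Adrb3), 1 (Ppargc1a) and 2 (Ucp1 and Ppargc1a). edgeR also called none in the sex comparisons and interactions, and DESeq2 called 1, Ppargc1a in the last of them.

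**Figure D1:**
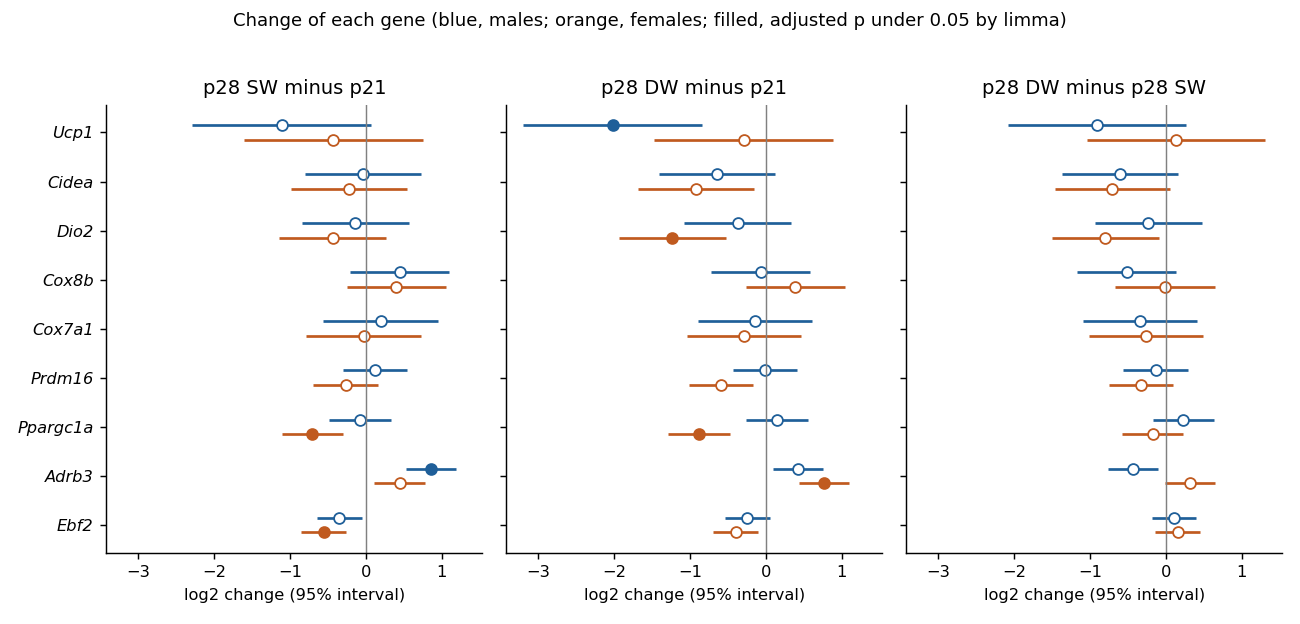
Change of each of the 9 genes on the log2(value + 1) scale in males (blue) and females (orange), from p21 to p28 SW, from p21 to p28 DW and from SW to DW at p28. Points are limma estimates over 4 animals per group, bars are 95% intervals, and filled points were called at an adjusted p under 0.05; no point in the right panel is filled.

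Ucp1 (ENSMUSG00000031710, deposited at chromosome 8, 84016981 to 84025081) varied more between animals of 1 group than nearly all other genes. Its value in the 4 p21 males was 203, 455, 690 and 435, in the SW males 438, 206, 91.4 and 153, and in the DW males 73.2, 138, 85.2 and 117. All 4 DW males lay below all 4 p21 males, while the SW males spanned the gap and overlapped both. In the p21 females it was 33.7, 218, 454 and 271, in the SW females 175, 179, 76.3 and 116, and in the DW females 122, 133, 203 and 124. The lowest value of all 24 animals was that of p21 female 30. That lowest value rested on 4207 reads.

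In order of its mean, Ucp1 was at 446 ± 199 (SD, n = 4) in p21 males, 244 ± 173 in p21 females, 222 ± 151 in SW males, 145 ± 38.9 in DW females, 137 ± 49.4 in SW females and 103 ± 29.5 in DW males. Every pair of neighbours in this order overlapped. The SD within groups was 0.88 on the log2 scale, larger than in 99.4% of the genes with a mean value of at least 10. It was far larger than that of Ebf2 (0.21) or Adrb3 (0.24).

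From p21 to p28 DW, Ucp1 fell in males by 2.02 on the log2 scale (SE 0.57, 95% interval -3.19 to -0.84, limma adjusted p 0.0205), to 0.25 of its p21 level. In females the change was -0.29 (SE 0.57, interval -1.47 to 0.89). The difference between the sexes, 1.73 (interval 0.06 to 3.39), was not called (limma adjusted p 0.277). The fall in males was no longer called without p21 male 53 (-1.76, limma adjusted p 0.0758), whose library was the shallowest, or without DW male 79 (0.0589) or DW male 86 (0.0534). The muscle sums were 44.8 to 748 in p21 and 455 to 9132 in DW males, so the muscle list overlaps with age here. With it as a covariate the change was -1.52 (limma adjusted p 0.203), and a call lost this way cannot tell muscle from age. The same limit applies to the age calls below that were lost with this covariate. Within groups Pearson's r of the muscle list with Ucp1 was -0.27 (permutation p 0.356, adjusted 0.552). In bulk tissue, fewer cells of a type and less RNA per cell cannot be told apart.

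Between p21 and p28 SW the change in Ucp1 was -1.11 (SE 0.57) in males and -0.43 (SE 0.57) in females, neither called. In the mean of both sexes it was -0.77 (interval -1.60 to 0.06, limma adjusted p 0.167), and without p21 female 30 it was -1.16 and called (limma adjusted p 0.00781). DESeq2 also called it (-0.92, adjusted p 0.0383). In the mean of both sexes under DW Ucp1 fell by 1.15 (SE 0.40, limma adjusted p 0.041), a call lost when any 1 of 12 animals was left out (-0.92 to -1.19). These were all p21 and DW animals except p21 male 37, DW male 80, p21 female 30 and DW female 82. The call was also lost with only the groups compared in the fit (limma adjusted p 0.06), with the muscle covariate (-0.90, 0.177) and without DW females 82 and 83 together (-1.23, 0.0539). DW minus SW was -0.91 in males (interval -2.08 to 0.27) and 0.14 in females (interval -1.04 to 1.31). Both intervals reach to a level below 0.5 of that in SW animals.

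Numbers of the p28 animals form a run from 73 to 80 and another from 81 to 87, and SW male 124 belongs to neither. Within the 2 runs, the DW minus SW difference in Ucp1 was -2.11 (2 DW and 1 SW animals) and -0.46 (2 and 2) in males, and -0.07 (2 and 3) and 0.44 (2 and 1) in females. These subsets are too small for a test.

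**Figure D2:**
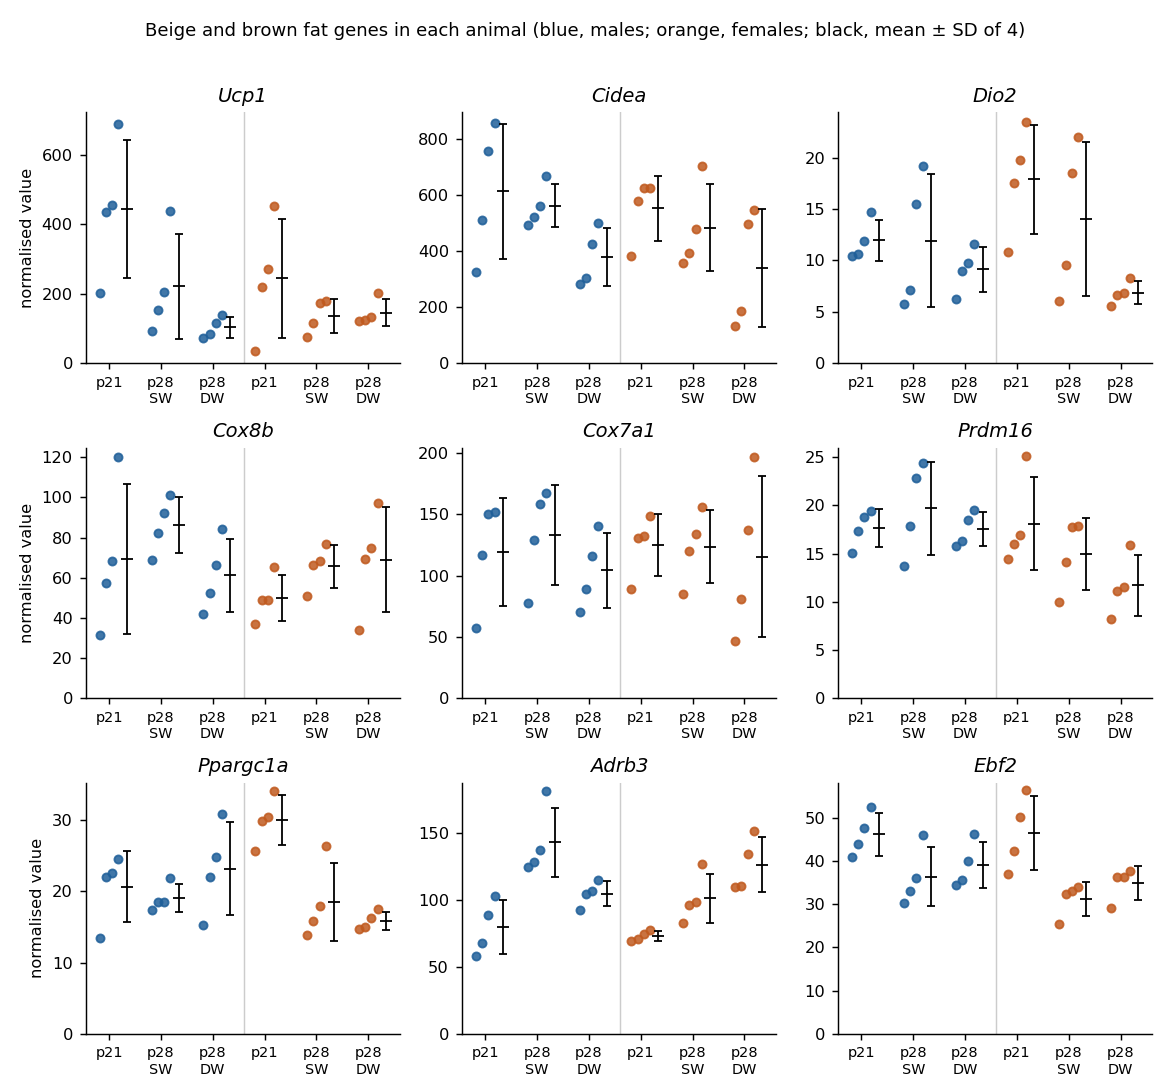
Normalised value of each of the 9 genes in each of the 24 animals, by age and weaning group (p21, p28 SW, p28 DW), males in blue and females in orange, with the mean ± SD of 4 in black and every axis starting at 0. Ucp1 reaches from 33.7 to 690 at p21 and from 73.2 to 138 in DW males, and Adrb3 is lowest in the p21 groups.

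Cidea (ENSMUSG00000024526, chromosome 18, 67476674 to 67500855) was 324, 511, 756 and 857 in the p21 males, 669, 523, 494 and 561 in the SW males, and 426, 499, 281 and 304 in the DW males. In the p21 females it was 579, 624, 626 and 382, in the SW females 477, 702, 357 and 394, and in the DW females 545, 497, 185 and 133. The last 2, DW females 82 and 83, had the lowest values of all 24 animals, and the other 2 DW females lay inside the range of SW. These 2 libraries also stood apart from DW females 76 and 77 in other cell types: the macrophage sum was 244 and 261 against 407 and 451, that of 5 endothelial genes 996 and 897 against 1433 and 1491, and the mammary sum 110 and 112 against 224 and 206. The part of these in their Cidea values was not tested. Averaged over the sexes Cidea fell from p21 to p28 DW by 0.78 (SE 0.26, limma adjusted p 0.0337), to 0.58 of its p21 level. Without DW females 82 and 83 that change was -0.35 (limma adjusted p 0.229). The call was also lost when any 1 of 9 animals was left out, namely DW female 82 or 83, p21 male 53 or 54, DW male 86 or 87, or p21 female 30, 36 or 55 (-0.60 to -0.77). It was lost as well with only the groups compared in the fit (limma adjusted p 0.0717), with the muscle covariate (-0.69, 0.117) and by edgeR with RLE factors (-0.70, adjusted p 0.0509). In females alone the change was -0.92 (SE 0.37, limma adjusted p 0.104), and it was called without DW female 76 (-1.23, limma adjusted p 0.0224) or 77 (-1.19, 0.0366). The changes to p28 SW were -0.04 in males (interval -0.80 to 0.72) and -0.22 in females (interval -0.98 to 0.54). DW minus SW was -0.60 in males (interval -1.36 to 0.16), -0.70 in females (interval -1.47 to 0.06) and -0.65 in the mean of both (interval -1.19 to -0.11, limma adjusted p 0.201). Within the 2 animal-number runs it was -0.536 and -0.795 in males and 0.079 and -1.326 in females. The second female value sets DW females 82 and 83 against 1 SW female.

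Dio2 (ENSMUSG00000007682, chromosome 12, 90691326 to 90705812) was 17.5, 10.8, 23.5 and 19.8 in the p21 females, 18.5, 22.0, 9.54 and 6.03 in the SW females, and 6.67, 8.28, 6.84 and 5.57 in the DW females. The DW females lay below all p21 females and the SW females were split, 2 near the p21 level and 2 near the DW level. Dio2 fell by 1.23 from p21 to p28 DW in females (SE 0.34, interval -1.94 to -0.53, limma adjusted p 0.0207), to 0.43 of its p21 level. This call was lost without p21 female 55 (limma adjusted p 0.0672), p21 female 56 (0.0539) or DW female 83 (0.0666), and without DW females 82 and 83 together (-1.11, 0.118).

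In males Dio2 was 10.4, 11.9, 10.7 and 14.8 at p21, 19.2, 5.77, 7.16 and 15.5 under SW and 6.21, 8.93, 9.77 and 11.6 under DW, with overlap between all groups. The male change from p21 to p28 DW was -0.37 (interval -1.08 to 0.33), and the difference between the sexes was -0.86 (interval -1.86 to 0.14, limma adjusted p 0.355). Averaged over the sexes Dio2 fell by 0.80 (SE 0.24, limma adjusted p 0.0191), a call that held when each animal was left out singly and was lost with the muscle covariate (-0.71, limma adjusted p 0.0778) or without DW females 82 and 83 together (-0.74, limma adjusted p 0.0528). DW minus SW was -0.80 in females (interval -1.50 to -0.09, limma adjusted p 0.227) and -0.23 in males (interval -0.94 to 0.47). Within the 2 animal-number runs it was -0.993 and 0.029 in females and -1.256 and 0.646 in males.

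Cox8b (ENSMUSG00000025488, chromosome 7, 140478858 to 140480359) was 31.5, 57.4, 120 and 68.2 in the p21 males, 92.3, 101, 68.6 and 82.4 in the SW males, and 66.3, 84.1, 52.2 and 42.2 in the DW males. In the p21 females it was 48.9, 48.9, 65.2 and 36.9, in the SW females 51.2, 66.5, 68.5 and 76.7, and in the DW females 69.4, 74.9, 97.4 and 34.1. The groups overlapped in every comparison. The changes ran from -0.07 (from p21 to p28 DW, males; interval -0.72 to 0.59) to 0.45 (from p21 to p28 SW, males; interval -0.21 to 1.1) with age, and DW minus SW was -0.52 in males (interval -1.17 to 0.14) and -0.01 in females (interval -0.66 to 0.64). The mean change of both sexes to p28 SW, 0.43 (limma adjusted p 0.17), was called without p21 male 53 (0.58, limma adjusted p 0.04).

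Cox7a1 (ENSMUSG00000074218, chromosome 7, 29883569 to 29885503) was 57.7, 117, 150 and 152 in the p21 males, 167, 77.5, 159 and 129 in the SW males, and 116, 141, 70.6 and 89.4 in the DW males. In the p21 females it was 132, 130, 149 and 89.0, in the SW females 120, 156, 84.8 and 134, and in the DW females 197, 137, 80.9 and 46.8. The highest and the lowest value of all 24 animals were both in DW females, 76 and 83. Its changes lay between -0.34 (DW minus SW in males, interval -1.09 to 0.42) and 0.20 (p21 to p28 SW in males, interval -0.56 to 0.95), with overlap in every comparison. Within the 2 animal-number runs DW minus SW was -0.387 and -0.476 in males and 0.492 and -1.105 in females.

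Both genes are also muscle genes, so their values were set beside the 22 skeletal muscle genes. The muscle sum ranged from 44.8 to 9230, while Cox8b ranged from 31.5 to 120 and Cox7a1 from 46.8 to 197. After each group's mean was subtracted, Pearson's r over 24 animals between the muscle list and Cox8b was -0.41 (permutation p 0.0732, 0.235 adjusted over 45 relations; Spearman's rho -0.49, permutation p 0.0331, adjusted 0.241). Without the 2 animals farthest in the muscle list r was -0.30. For Cox7a1 it was -0.01 (permutation p 0.957, adjusted 0.957; rho -0.04, permutation p 0.879) and 0.23 without those 2. Neither relation passed the adjustment. The animals with the highest muscle sums, SW male 85 and DW male 86, had Cox8b at 68.6 and 52.2 and Cox7a1 at 159 and 70.6. Cox6a2, a muscle isoform of another subunit, was at low values, with medians of 0.82 in p21, 5.55 in SW and 3.32 in DW males. In females the medians of Cox6a2 were 0.43 at p21, 3.70 under SW and 0.50 under DW. In the mean of both sexes it rose from p21 to p28 SW by 1.60 (SE 0.44, limma adjusted p 0.00938).

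**Figure D3:**
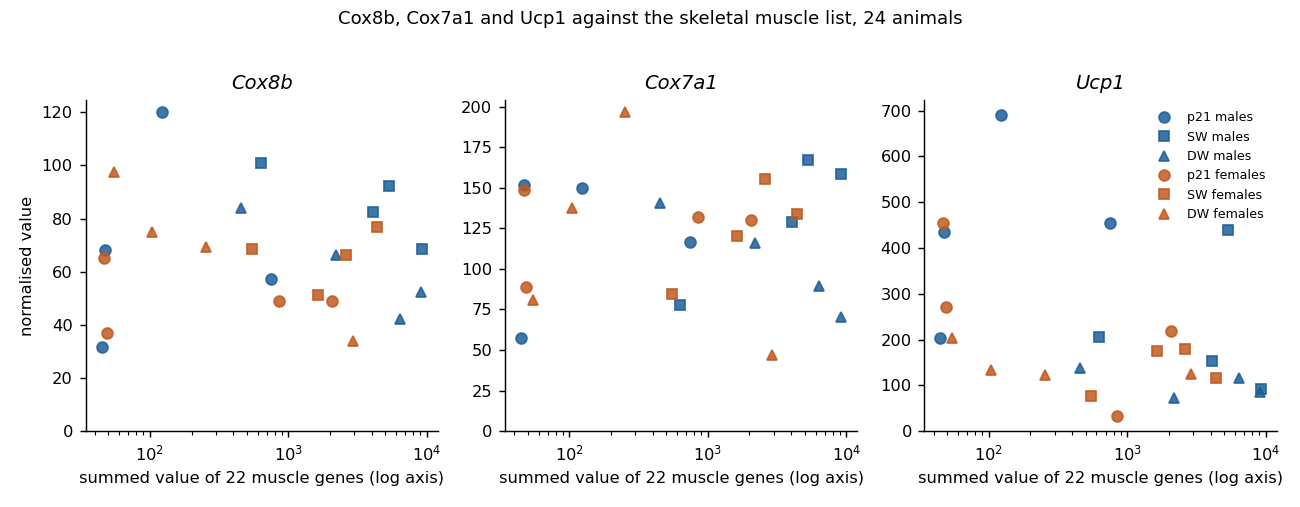
Normalised values of Cox8b, Cox7a1 and Ucp1 against the summed value of 22 skeletal muscle genes (log axis) in 24 animals, males in blue and females in orange, circles for p21, squares for p28 SW and triangles for p28 DW. The muscle sum spans 44.8 to 9230, while Cox8b stays within 31.5 to 120 and Cox7a1 within 46.8 to 197.

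The widely expressed counterparts of these subunits are Cox8a and Cox7a2. Their values were used only as a ratio within each library and compared between animals. Cox7a1 over Cox7a2 was 0.626 to 1.59 in 22 animals and 0.255 and 0.23 in DW females 82 and 83, the animals with the lowest Cidea. In these 2 the denominator, Cox7a2, was at 318 and 204, the highest of all 24 animals, while Cox7a1 was at 80.9, inside the range of the others, and at 46.8, the lowest. Cox8b over Cox8a in these 2 was 0.621, the highest of all 24, and 0.386. Here the denominator, Cox8a, was at 157 and 88.3, the second being the lowest of all 24 animals. DW females 76 and 77 had Cox8a at 245 and 212. DW minus SW was -0.54 for Cox8a in the mean of both sexes (SE 0.17, limma adjusted p 0.0975) and 0.09 for Cox7a2 (SE 0.17). Of 13 other cytochrome c oxidase genes, none was called for weaning, 3 rose and none fell in the mean of both sexes from p21 to p28 SW, and 2 rose and none fell to p28 DW. These shares are no larger than the 25.8% and 22.8% of all genes called in the 2 age comparisons. Cox6a1 rose by 0.73 (SE 0.12, limma adjusted p 0.000108) and 0.50 (SE 0.12, 0.0037), and Cox4i2 by 0.57 (SE 0.14, 0.00416) and 0.49 (SE 0.14, 0.013). In DW males against SW males all 13 changes were below 0 (median -0.35, all genes tested 0.00). Of these 13, 2 were at an unadjusted p under 0.05, against 1110 of all 16005 genes. In females 6 of the 13 were above 0 and 7 below (median -0.03).

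Among the regulators, Ppargc1a (ENSMUSG00000029167, chromosome 5, 51611592 to 51725068) was highest in the p21 females, at 34.2, 25.7, 30.4 and 29.8. The SW females had 15.9, 26.4, 13.8 and 18.0 and the DW females 14.7, 16.2, 15.0 and 17.5. The DW females lay below all p21 females, and 1 SW female, 74, reached into the p21 range. Ppargc1a fell in females from p21 to p28 SW by 0.70 (SE 0.20, limma adjusted p 0.0207) and from p21 to p28 DW by 0.88 (SE 0.20, limma adjusted p 0.00548), to 0.61 and 0.54 of the p21 level. The fall under SW was lost without p21 female 30 (limma adjusted p 0.0692), SW female 73 (0.0655) or SW female 75 (0.0827), while the fall under DW was called under every alternative tried. Averaged over the sexes Ppargc1a fell under SW by 0.39 (SE 0.14, limma adjusted p 0.0417), a call lost with the muscle covariate (-0.48, limma adjusted p 0.114) and without any 1 of 12 animals (-0.33 to -0.39). These were all p21 and SW animals except p21 male 53, SW male 124, p21 female 36 and SW female 74. Under DW the mean change was -0.36 (limma adjusted p 0.0634), called by DESeq2 (adjusted p 0.0489) and without p21 male 53 (-0.46, limma adjusted p 0.0146), DW male 86 (-0.44, 0.0292) or SW female 74 (-0.36, 0.0432).

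In males Ppargc1a was 24.6, 22.0, 13.4 and 22.7 at p21, 18.5, 18.5, 17.4 and 21.9 under SW, and 15.2, 22.0, 30.8 and 24.8 under DW, with overlap throughout. The male changes were -0.08 (interval -0.49 to 0.33) and 0.15 (interval -0.26 to 0.56). The difference between the sexes in the change to p28 DW was -1.03 (interval -1.60 to -0.45), with a limma adjusted p of 0.133 and a DESeq2 adjusted p of 0.0308. At p21 the 4 females lay above the 4 males (30.0 ± 3.45 against 20.7 ± 4.95, n = 4 each), a difference of 0.55 that was not called (limma adjusted p 0.431).

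Ebf2 (ENSMUSG00000022053, chromosome 14, 67470741 to 67668367) was 50.2, 56.6, 42.4 and 37.1 in the p21 females, 32.4, 33.0, 25.4 and 34 in the SW females, and 29.1, 36.4, 37.8 and 36.5 in the DW females. The SW females lay below all p21 females, and the DW females reached just above the lowest p21 value. In females Ebf2 fell by 0.55 from p21 to p28 SW (SE 0.14, limma adjusted p 0.0122), a call lost without p21 female 36 (0.0543) or SW female 75 (0.0548). In males it was 52.5, 47.6, 43.9 and 41.1 at p21, 33.1, 46.1, 30.3 and 36.1 under SW and 34.5, 35.6, 40.1 and 46.3 under DW. The male change to p28 SW was -0.35 (SE 0.14, limma adjusted p 0.114) and was called without SW male 84 (-0.47, limma adjusted p 0.0459), the highest of its group. Averaged over the sexes Ebf2 fell by 0.45 (SE 0.10, limma adjusted p 0.00232) under SW, under every alternative tried, and by 0.32 (SE 0.10, limma adjusted p 0.0263) under DW. The call under DW was lost without DW male 79 or 80, p21 female 30 or 36, or DW female 76 (-0.27 to -0.30, limma adjusted p 0.0517 to 0.0624).

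Prdm16 (ENSMUSG00000039410, chromosome 4, 154400582 to 154721330) was 15.0 to 19.4 in p21 males, 13.8 to 24.3 in SW males and 15.8 to 19.5 in DW males. In females it was 14.4, 25.1, 16.9 and 16.0 at p21, 14.2, 17.7, 9.95 and 17.9 under SW and 11.2, 15.9, 11.6 and 8.22 under DW. The lowest values of all 24 animals were in DW and SW females, and groups overlapped in every comparison. The change from p21 to p28 DW in females was -0.59 (SE 0.20, interval -1.01 to -0.17), not called by limma (adjusted p 0.0618) and called by DESeq2 (adjusted p 0.0382), without DW female 77 (-0.74, limma adjusted p 0.0213) and without SW female 75 (limma adjusted p 0.0469). In males it was -0.01 (interval -0.43 to 0.41).

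Adrb3 (ENSMUSG00000031489, chromosome 8, 27715804 to 27740644), the receptor, was the only one of the 9 that was called higher at p28. It was 88.7, 103, 58.3 and 68.1 in the p21 males, 129, 181, 138 and 124 in the SW males, and 92.2, 107, 115 and 104 in the DW males. In the p21 females it was 77.7, 70.6, 69.5 and 74.8, in the SW females 82.7, 98.6, 96.1 and 127, and in the DW females 110, 109, 134 and 151. The SW males and both p28 female groups lay wholly above the p21 animals of their sex, and the DW males overlapped theirs.

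Adrb3 rose in males from p21 to p28 SW by 0.85 (SE 0.16, interval 0.52 to 1.18, limma adjusted p 0.0016), to 1.81 times the p21 level. In females it rose from p21 to p28 DW by 0.77 (SE 0.16, limma adjusted p 0.00324), a call lost without DW females 82 and 83 together (0.58, limma adjusted p 0.0566). The changes that were not called were 0.45 in SW females (interval 0.12 to 0.77, limma adjusted p 0.0758) and 0.42 in DW males (interval 0.09 to 0.75, limma adjusted p 0.0774). The first was called without p21 male 53 (limma adjusted p 0.0447) or SW female 73 (0.53, 0.0496), by DESeq2 (adjusted p 0.0452) and with only the groups compared in the fit (limma adjusted p 0.0302), and the second without p21 male 38 (0.56, limma adjusted p 0.0249). Averaged over the sexes it rose by 0.65 under SW (SE 0.11, limma adjusted p 0.000233) and 0.59 under DW (SE 0.11, limma adjusted p 0.000638), under every alternative tried. Adipoq, a hormone gene of fat cells, was at 787 to 803 in p21 males and 1276 to 1527 in p28 males, and at 872 to 1456 in p21 females and 1186 to 1491 in p28 females. The 5 macrophage genes were higher at p28 and the red blood cell genes mostly lower, as given above, and the part of these in the age changes was not tested.

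With delayed against standard weaning, the estimates for Adrb3 had opposite signs in the sexes, and neither change was called. All 4 DW males lay below all 4 SW males (104 ± 9.39 against 143 ± 26, n = 4 each), a change of -0.44 (interval -0.77 to -0.11, limma adjusted p 0.484). DW females were at 126 ± 20.3 and SW females at 101 ± 18.5 (n = 4 each), a change of 0.32 (interval -0.01 to 0.65, limma adjusted p 0.273), with overlap. The difference between the sexes was 0.76 (SE 0.23, interval 0.29 to 1.22), with an unadjusted limma p of 0.00277 and an adjusted p of 0.708, so it did not pass. Within the animal-number runs DW minus SW was -0.37 (2 DW and 1 SW animals) and -0.52 (2 and 2) in males. In females it was 0.25 (2 and 3) and 0.17 (2 and 1). The runs split the same animals and are too small for a test, so like signs are no separate support. Ebf2 also kept its sign between the runs, at 0.08 and 0.20 in males and 0.11 and 0.12 in females. For other genes the sign of DW minus SW differed between the runs: Ucp1, Cidea, Dio2, Cox8b and Cox7a1 in females. In males it differed for Dio2, Prdm16 and Ppargc1a.

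Between animals of 1 group, Cidea and Cox7a1 varied together. Over 24 animals, after each group's mean was subtracted, Pearson's r was 0.89 (permutation p 1e-05, the smallest that 100000 permutations can give, 0.00045 adjusted over 45 relations) and Spearman's rho was 0.89 (permutation p 3e-05, adjusted 0.00135). Without DW females 76 and 83, the 2 farthest in Cidea, r was 0.83, and without DW females 82 and 83 it was 0.83 as well. None of the other 35 pairs of the 9 genes passed the adjustment. The next by permutation p was Cidea with Adrb3 (r -0.60, permutation p 0.0143, adjusted 0.235, rho -0.64, permutation p 0.0107, adjusted 0.24), -0.53 without the farthest 2 in Cidea. Then came Cox7a1 with Adrb3 (r -0.57, permutation p 0.0172, adjusted 0.235), -0.49 without p21 male 37 and DW female 83. Cox8b with Cox7a1 (r 0.58, permutation p 0.029, adjusted 0.235) was at 0.28 without these same 2. Cidea with Cox8b (r 0.58, permutation p 0.0307, adjusted 0.235, rho 0.51, permutation p 0.0337, adjusted 0.241) was at 0.50 without the farthest 2 in Cidea. For Ucp1 r was 0.20 with Cidea, 0.37 with Dio2, 0.36 with Cox8b, 0.20 with Cox7a1, 0.19 with Prdm16, -0.12 with Ppargc1a, -0.21 with Adrb3 and -0.07 with Ebf2, and the lowest permutation p was 0.0615, that of Cox8b (0.235 adjusted). Without p21 female 30, which had the lowest Ucp1, r was 0.34 with Cidea, 0.55 with Dio2, 0.52 with Cox8b, 0.34 with Cox7a1 and 0.01 with Prdm16, so these values depend on that animal.

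The genes most like Ucp1 were not among the 9. Among 9133 genes with a mean value of at least 10, the 10 with the highest Pearson r to Ucp1 over 24 animals, each group's mean subtracted, were Acot11 (0.92), S100b (0.83), Otop1 (0.82), Gys2 (0.80), Clstn3 (0.76), Tstd3 (0.74), Rmdn3 (0.74), Dip2a (0.73), Akap5 (0.73) and Ccnd1 (0.73). Acot11 encodes an acyl-CoA thioesterase of brown fat, S100b a calcium-binding protein and Otop1 a proton channel, and these 3 stand on the list of 26 markers used below. The 10 were picked for this r, which is a description without a test. Dio2 ranked 368, Cidea 1411 and Adrb3 7392. Without p21 female 30, Acot11 was at 0.84, Otop1 at 0.78, S100b at 0.75, Rmdn3 at 0.72 and Tstd3 at 0.70, and these 5 of the 10 remained among the first 10. Gys2 was then at 0.62 and Clstn3 at 0.59, while Dip2a (0.51), Akap5 (0.46) and Ccnd1 (0.43) were below Dio2 and Cox8b.

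Acot11 was 23.9, 38.3, 91.0 and 69.6 in the p21 males, 55.9, 52.5, 27.0 and 52.1 in the SW males, and 11.5, 21.8, 14.6 and 22.0 in the DW males. The animals that were lowest and highest in Ucp1 at p21, female 30 and male 53, were also lowest and highest in Acot11 (8.26 and 91.0). Acot11 fell in males from p21 to p28 DW by 1.49 (SE 0.47, limma adjusted p 0.0354) and Otop1 by 1.01 (SE 0.34, 0.0494). S100b (-1.21, limma adjusted p 0.000733) and Tstd3 (-0.59, 0.0269) were also called lower there. Not all of the genes most like Ucp1 fell with age. In the mean of both sexes Akap5 rose by 1.23 to p28 SW (limma adjusted p 0.000597) and by 0.695 to p28 DW (0.0359). Gys2 rose by 0.69 to p28 SW in that mean (limma adjusted p 0.0281). For weaning in the mean of both sexes Acot11 was at -1.21 (SE 0.33, limma adjusted p 0.054) and Rmdn3, a mitochondrial outer membrane protein, fell by 0.39 (SE 0.09, limma adjusted p 0.0142).

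**Figure D4:**
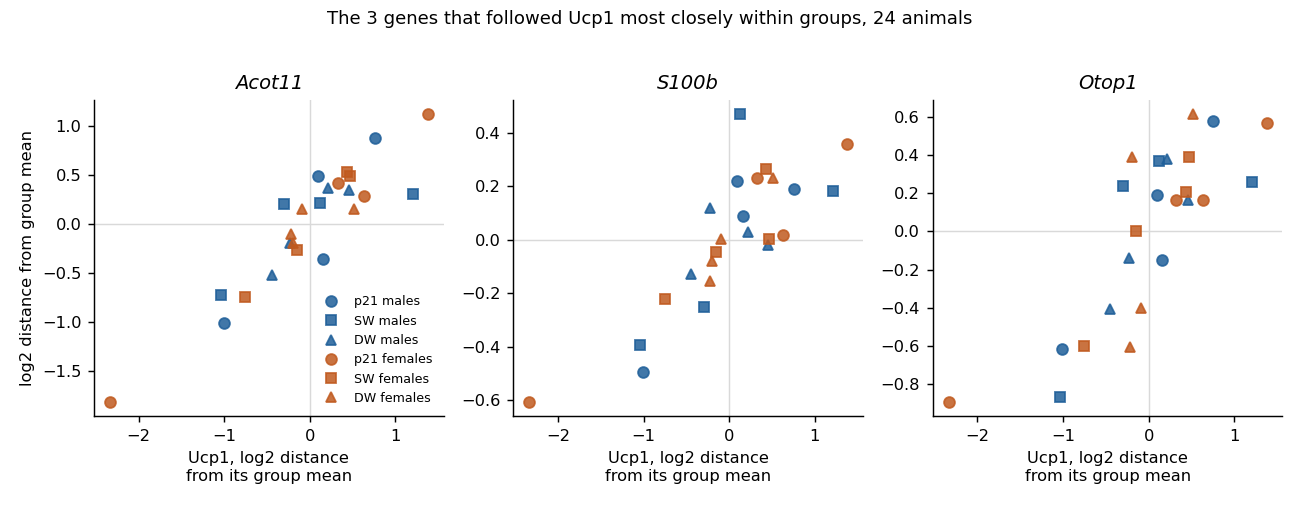
Log2 distance of Acot11, S100b and Otop1 from their group mean against that of Ucp1 in 24 animals, males in blue and females in orange, circles for p21, squares for p28 SW and triangles for p28 DW. The genes were chosen for this likeness (r of 0.92, 0.83 and 0.82), and p21 female 30 is the point at the lower left of each panel.

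A list of 26 other brown and beige markers was read from the same fit. In the change from p21 to p28 SW, averaged over the sexes, 4 rose and 9 fell (median -0.12, all genes tested 0.02), and from p21 to p28 DW 2 rose and 10 fell (median -0.29, all genes tested 0.01), where 25.8% and 22.8% of all genes were called. Under DW the smallest p-values were those of Pank1 (-0.84, SE 0.12), S100b (-0.93, SE 0.14), Letmd1 (-0.66, SE 0.11) and Epsti1 (-0.92, SE 0.18), with limma adjusted p-values from 4.18e-05 to 0.000804. Under SW they were those of S100b (-1.15, SE 0.14), Elovl3 (1.93, SE 0.25), Pank1 (-0.69, SE 0.12) and Fabp3 (-1.37, SE 0.25), with limma adjusted p-values from 7.22e-06 to 0.000408. Pank1 makes coenzyme A, Letmd1 encodes a mitochondrial protein of brown fat, and Fabp3 a fatty acid carrier of muscle and brown fat.

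S100b was at 22.1 ± 4.76 in p21 males, 8.26 ± 2.57 in SW males and 8.80 ± 0.70 in DW males, and at 16.1 ± 4.52, 7.53 ± 1.21 and 9.61 ± 1.27 in the same groups of females (n = 4 each). Its p28 males lay wholly below its p21 males. Elovl3, an elongase of very long fatty acids, went the other way: it was at 1.39 ± 0.54 in p21 males, 11.9 ± 7.58 in SW males and 1.62 ± 0.55 in DW males.

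For weaning 0 of the 26 rose and 2 fell in the mean of both sexes (2.21% of all genes were called), Elovl3 (-1.82, SE 0.25, limma adjusted p 0.00026) and Kcnk3 (-0.49, SE 0.12, limma adjusted p 0.0353). Kcnk3 encodes a potassium channel of fat cells and was at 114 ± 15.4 in SW and 82.3 ± 16.2 in DW males, and at 95.6 ± 22.3 in SW and 67.1 ± 12.2 in DW females (n = 4 each). Elovl3 was also the 1 marker called in each sex alone.

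**Figure D5:**
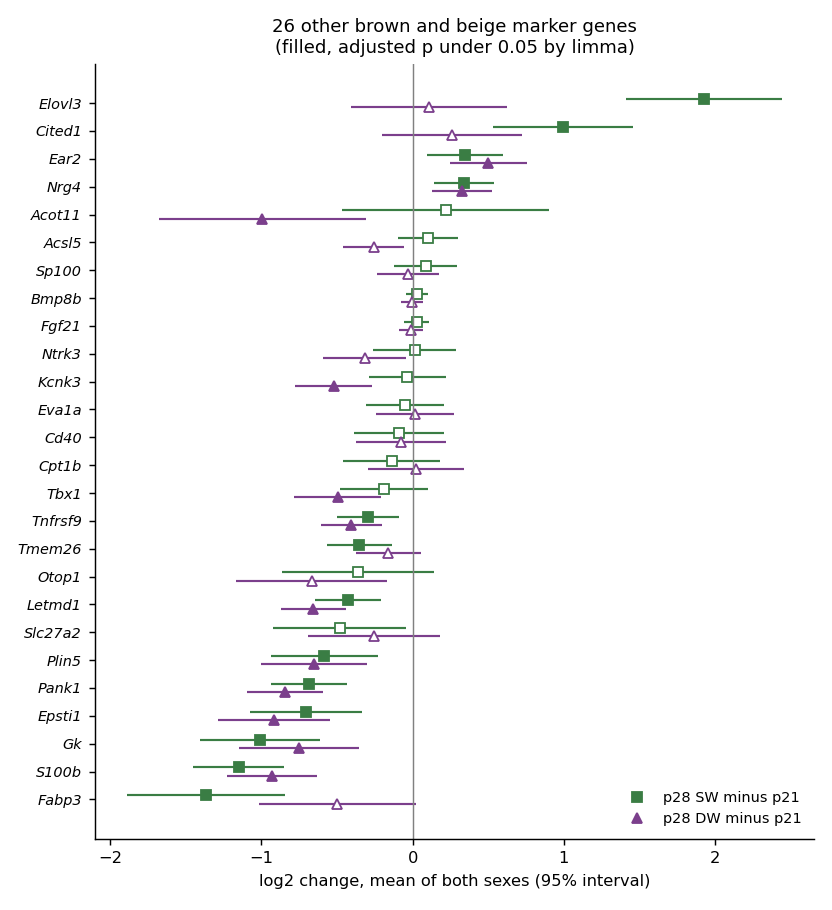
Log2 change of 26 other brown and beige marker genes from p21 to p28 SW (green squares) and to p28 DW (purple triangles), mean of both sexes, with 95% intervals, filled where called by limma at an adjusted p under 0.05. Elovl3 stands at 1.93 under SW and near 0 under DW, and S100b, Pank1, Letmd1 and Epsti1 are below 0 under both.

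Of 23 other regulators of brown and beige identity 22 were tested, and none was called for weaning. In the mean of both sexes 4 of the 22 were at an unadjusted p under 0.05, against 2781 of all 16005 genes. Between p21 and p28 SW 4 rose and 2 fell in the mean of both sexes (median 0.07), and to p28 DW 1 rose and 2 fell (median 0.03). The share called was close to that of all genes under SW (25.8%) and below it under DW (22.8%). Under SW Esrrg, a nuclear receptor that works with PGC-1alpha, fell by 0.68 (SE 0.13, limma adjusted p 0.000734) and Pparg, the master regulator of fat cells, by 0.47 (SE 0.11, limma adjusted p 0.00395), while Lhx8 rose by 0.43 (SE 0.09) and Zfp516 by 0.36 (SE 0.11). Under DW Nfia fell by 0.44 (SE 0.11, limma adjusted p 0.00686) and Esrrg by 0.47 (SE 0.13, limma adjusted p 0.0127), and Nrip1, a corepressor, rose by 0.43 (SE 0.12, limma adjusted p 0.0148).

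Of 20 genes of the adrenergic input to fat cells 18 were listed and tested, without Th and Npy, and none was called for weaning. In the mean of both sexes 4 of the 18 were at an unadjusted p under 0.05, against 2781 of all 16005 genes. Between p21 and p28 SW 2 rose and 1 fell in the mean of both sexes (median -0.02), and to p28 DW 2 rose and 3 fell (median -0.09), against 25.8% and 22.8% of all genes called. Adcy5, an adenylyl cyclase that makes cyclic AMP, rose by 0.59 (SE 0.16, limma adjusted p 0.0107) and 0.56 (SE 0.16, 0.0164). Pde3b, which breaks cyclic AMP down, rose by 0.52 under DW (SE 0.12, limma adjusted p 0.00282). Adrb1, another beta receptor, fell by 0.43 under DW in the mean of both sexes (SE 0.13, limma adjusted p 0.0186) and in males alone by 0.57 under SW and 0.80 under DW (limma adjusted p 0.0459 and 0.00612), opposite in direction to Adrb3. Not every gene of this list that was called in the mean of both sexes is named here, and those left out include genes that fell.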

How the data were processed

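Poly(A) RNA of 24 mice was measured, 1 library per animal. Per the submitters' processing notes, fastp, HISAT2, featureCounts, DESeq2 1.38.3 and mm10 were used, without stated roles. The deposited signal is the number of reads of a gene divided by 1 factor per library. All values (100%) were whole multiples of the worth of 1 read within 0.001, so reads were recovered. The strand setting is not given in the sources used here. Groups follow the descriptions and age labels; the titles give p28 for the p21 animals. No animal number occurs in more than 1 group, and nothing was paired. The deposited gene positions name no build and differ from RefSeq's on GRCm38.

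Of 16208 rows, 90 repeats were dropped. Genes were kept by filterByExpr on recovered reads (minimum count 10), leaving 16005. limma 3.58.1 (R 4.3.3) was fitted to log2(value + 1) with a variance trend, 6 group means and 18 residual degrees of freedom, with Benjamini-Hochberg adjustment over all genes. The pseudocount understates changes of low genes. The fit was tested on simulated data. Alternatives were edgeR 4.0.16 (TMM or RLE factors) and DESeq2 1.42.0 on recovered reads, a pseudocount of 0.1, no filter, a value of at least 1 in 4 libraries, no trend, only the groups compared, the muscle list or the animal-number run as a covariate, each animal left out, and p21 male 53 with SW male 84 left out. Leaving out DW females 82 and 83 together, and p21 female 30 from the genes like Ucp1, was added after the data were seen. Two-sided permutation tests (100000) shuffled animals within groups. All 9 genes are described. From each list up to 4 called genes per comparison with the smallest p were to be named, plus Cox8a and Cox7a2. For the adrenergic list fewer are named. The 10 genes most like Ucp1 were named by rank of r. The 9 genes and all lists were chosen with earlier results of these data known.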

Additional observations from a re-analysis of the deposited data

Results flagged for a closer look

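2 of 54 sets of 4 animals (9 genes in 6 groups) held an animal far from its group, and chance alone gives about 1 in 20, or 2.7. Ucp1 in DW female 82 was 203.3, against 121.6 to 133.1 in the other 3 DW females. Ebf2 in DW female 76 was 29.09, against 36.37 to 37.79 in the others.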

How the results depend on the processing

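Of 4779 values of the 9 genes under other settings, 4690 kept their side of the threshold, 65 lost a call, 24 gained one and 0 called values reversed. Among the 4690, 140 values that were not called changed sign. With the muscle list as a covariate 0 genes were called from p21 to p28 DW in males and 2 in the mean of both sexes, and in a fit of the compared groups alone 3 were called in that mean. Without p21 male 53 and SW male 84 together 0 were called in males under DW. Without DW females 82 and 83 together 1 was called in females under DW and 2 in the mean of both sexes. DESeq2 called 1 (Ppargc1a) for the sex difference in the change to p28 DW. Counts over all genes tested moved by over 1.5 times between tools: for SW against DW limma, edgeR (TMM, recovered reads) and DESeq2 called 41, 29 and 111 in males, 204, 71 and 295 in females, and 353, 299 and 586 in the mean; for sex 57, 15 and 115 at p21, and 394, 382 and 848 at p28 DW; for the sex difference in the change to p28, 165, 4 and 102 under SW and 11, 0 and 309 under DW; for that in the weaning effect 3, 0 and 1. The cause of these shifts was not tested. Leaving out 1 animal at a time gave 1 to 2 genes in males, 0 to 3 in females and 2 to 4 in the mean of both sexes under SW, 0 to 2 in males, 2 to 5 in females and 2 to 6 in that mean under DW, and 0 to 1 for sex at p28 SW (Adrb3, without SW female 81) and at p28 DW (Prdm16, without DW female 77). No paired analysis was possible because animal numbers are not shared between groups. With 4 animals per group the intervals of Ucp1 within 1 sex spanned more than 2 log2 units. The lowest number of reads behind a value of the 9 genes was 412, for Dio2 in SW male 84.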
